A study of Mus musculus with 42 samples.

Results

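Chemokines are small secreted proteins that set the direction in which leukocytes move, and 10 of their genes were followed here in mouse macrophages: Ccl2, Ccl7, Ccl3, Ccl4, Ccl5, Ccl6, Ccl9, Cxcl9, Cxcl16 and Pf4. They were chosen by symbol, and all 10 were found among the 11160 genes of the deposited count table. The macrophages were grown from bone marrow of wild-type (WT) mice or of MS4A4A knockout (KO) mice, which lack a membrane protein that macrophages carry, by culture with the growth factor M-CSF. The cells were detached and plated again, and on the following day they were left untreated or given vehicle or 1 µM dexamethasone (Dex), a synthetic glucocorticoid, for 2, 8 or 24 h. Every group, the untreated cells included, had therefore been grown in M-CSF and replated, and no group received an inflammatory stimulus according to the labels. Each of the 14 groups held 3 libraries, 42 in all, and the labels do not say whether the 3 are separate cultures, animals or neither; the spread behind each p-value may thus be technical.

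A chemokine binds to a receptor coupled to a G protein on the target cell, and one receptor often accepts several ligands. Ccl2 and Ccl7 act through CCR2, the receptor that draws monocytes from the bone marrow into tissue. Ccl3, Ccl4 and Ccl5 attract monocytes and T cells, while Ccl6 and Ccl9 are ligands of CCR1. Cxcl9 is an interferon-induced ligand of CXCR3 on T cells, Cxcl16 is made as a membrane protein that binds CXCR6, and Pf4 is best known as a protein of platelet granules. Glucocorticoids bind a nuclear receptor that raises the transcription of some genes and lowers that of many inflammatory ones, chemokines among them.

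The libraries held 10140200 to 33528400 counts (median 27998700), the lowest being WT untreated replicate 3, and levels are given as CPM, a gene's counts relative to the scaled total of its library. Fkbp5, a direct glucocorticoid target, lay between 297.7 and 1156 CPM in the Dex libraries and between 10.9 and 21.3 CPM in 23 of the libraries without Dex. The remaining one, KO vehicle 24 h replicate 2, had 69.9 CPM and also the highest Ms4a4a level among the KO libraries without Dex (179 CPM), so members' fold changes at 24 h are given with and without it. Leaving it out changed no call of the 10 genes in the 8 comparisons that use it. Ms4a4a transcript was still counted in all KO libraries, at 44.3, 46.3 and 49.6 CPM in untreated KO cells and 91.9, 81.8 and 93.5 CPM in untreated WT cells. All 10 macrophage markers checked, such as Csf1r and Adgre1, were present, with a summed level of 18416 to 43005 CPM. In bulk libraries, fewer cells making a transcript and less transcript per cell cannot be told apart.

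On chromosome 11 of GRCm38 lie 8 of the genes, and their order is set out because neighbours moved in opposite directions. Ccl2 (chr11:82035571-82037453, plus strand) and Ccl7 (chr11:82045712-82047525, plus) are adjacent. Farther along follow Ccl5 (chr11:83525778-83530518, minus), Ccl9 (chr11:83572919-83578636, minus), Ccl6 (chr11:83587882-83593087, minus), Ccl3 (chr11:83647844-83649355, minus) and Ccl4 (chr11:83662584-83664683, plus). Cxcl16 (chr11:70453983-70459984, minus) lies apart from both groups, and Cxcl9 (chr5:92321347-92328079, minus) and Pf4 (chr5:90772435-90773383, plus) are on chromosome 5. Each is annotated as a protein-coding gene.

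The RefSeq promoter table for GRCm38.p6 holds 5 of the 10 genes, namely Ccl3, Ccl6, Ccl9, Cxcl9 and Pf4. The 250 bases before the start sites of Ccl3, Ccl6 and Ccl9, all on the minus strand, are printed because these 3 genes of one cluster responded differently to Dex. Sequences run 5′ to 3′ toward the start site, and capitals mark matches to the motifs searched. The windows are chr11:83649379-83649628, chr11:83593088-83593337 and chr11:83578637-83578886.
Ccl3: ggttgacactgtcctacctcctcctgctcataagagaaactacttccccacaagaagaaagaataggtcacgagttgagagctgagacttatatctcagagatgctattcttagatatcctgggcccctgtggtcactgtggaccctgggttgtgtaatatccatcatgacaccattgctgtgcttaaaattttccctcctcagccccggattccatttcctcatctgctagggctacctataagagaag
Ccl6: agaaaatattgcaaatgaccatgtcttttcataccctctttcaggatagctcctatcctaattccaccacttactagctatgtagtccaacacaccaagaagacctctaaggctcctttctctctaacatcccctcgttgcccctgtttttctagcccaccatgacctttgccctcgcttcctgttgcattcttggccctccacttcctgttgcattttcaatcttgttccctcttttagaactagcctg
Ccl9: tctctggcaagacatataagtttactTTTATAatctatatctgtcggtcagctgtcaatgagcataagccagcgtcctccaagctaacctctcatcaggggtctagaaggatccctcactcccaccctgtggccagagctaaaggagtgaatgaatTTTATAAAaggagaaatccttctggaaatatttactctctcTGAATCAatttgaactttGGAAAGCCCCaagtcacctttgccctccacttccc
The motifs searched on both strands were the NF-kB consensus, the AP-1-like pattern TGANTCA (any base in the middle) and the interferon response element (a pair of GAAA spaced by 2 bases). Further motifs were the STAT element GAS (TTCNNNGAA), the glucocorticoid receptor half-site (AGAACA) and TATAAA. Only the Ccl9 window of the 3 printed held any of them. It had an NF-kB match 35 to 26 bases and a TGANTCA match (TGAATCA) 53 to 47 bases before the start. It also had 3 TATAAA matches, of which 2 overlap on opposite strands. In the windows not printed, that of Cxcl9 held 2 AGAACA matches and 1 TATAAA match, and that of Pf4 held none. Among 32851 promoter windows in the table, the share with a match was 3.9% for NF-kB, 6.7% for TGANTCA, 3.0% for the interferon element, 7.0% for GAS, 16.1% for AGAACA and 12.4% for TATAAA. A match describes letters in a window and not a bound site.

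Set per kilobase of exon, so that genes can be compared, Pf4 had the highest mean of the 10 transcripts in untreated WT cells, 425 ± 28.2 CPM per kb (SD, n = 3). Ccl6 (382 ± 66.5), Ccl7 (364 ± 96.8) and Ccl4 (357 ± 42.3) came next, with each mean within the spread of its neighbour. Cxcl9 was the scarcest at 0.848 ± 0.0939 CPM per kb. The length used was that of all annotated exons of a gene together. Where a shorter form is made the level per kb is understated, and which forms were made was not tested. After 24 h of Dex in WT cells the order differed. Ccl6 then stood at 1031 ± 263 CPM per kb and Pf4 at 602 ± 124, whereas Ccl7 (15.5 ± 6.77) and Ccl2 (10.8 ± 4.55) were far below them.

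Over the 14 groups, the mean level varied least for Pf4, with a ratio of 1.62 between its highest group (WT Dex 24 h) and its lowest (KO vehicle 8 h). The ratio was 2.27 for Ccl9, 2.83 for Cxcl16, 3.82 for Ccl5, 3.99 for Ccl6 and 5.22 for Ccl3. It reached 13.7 for Ccl4, 19.6 for Ccl2 and 25.1 for Ccl7. For Cxcl9 it was 59.2, on 8 counts in all in its lowest group. When the 14 groups were ordered by mean, most of the 13 neighbouring pairs overlapped in their libraries: 13 of 13 for Ccl5, Ccl9 and Pf4, 12 for Ccl2, Ccl7, Ccl6 and Cxcl16, 10 for Ccl4 and Cxcl9, and 9 for Ccl3. Ccl2 and Ccl7 broke at the same place, between KO Dex 2 h and WT Dex 8 h. Ccl6 broke between KO Dex 24 h and WT Dex 8 h, so that its 2 groups of 24 h of Dex stood apart from the other 12.

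**Figure D1:**
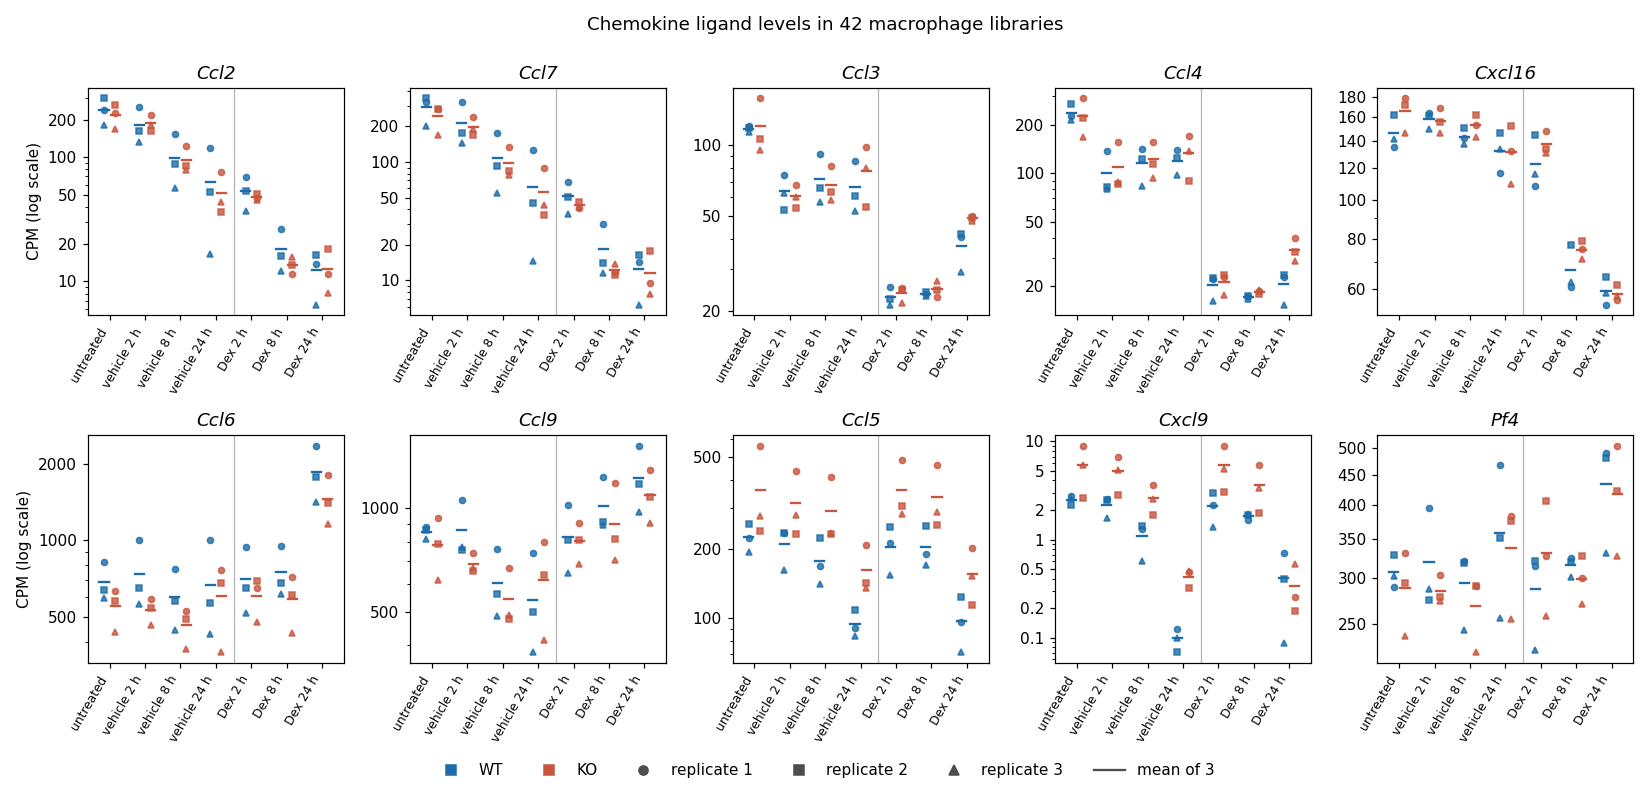
Level of each chemokine transcript in CPM (log axis, scaled separately for each gene) in the 14 groups; each point is a library, its shape gives the replicate number, its colour the genotype, and short lines are means of 3. Ccl2, Ccl7, Ccl3, Ccl4 and Cxcl16 lie lower with Dex at 8 h than with vehicle in every library, Ccl6 and Ccl9 lie higher with Dex at 24 h, and Cxcl9 runs from 0.071 to 9.08 CPM.

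Dex lowered 5 of the 10 transcripts, Ccl2, Ccl7, Ccl3, Ccl4 and Cxcl16, from the first time point on, and it raised Ccl9 by 8 h and Ccl6 by 24 h. Ccl5, Cxcl9 and Pf4 passed the test at no time in the mean of the genotypes without a replicate block. In that mean, edgeR called 0 members higher and 5 lower at 2 h (0 and 5 by DESeq2 and at an unadjusted p under 0.05), 1 higher and 5 lower at 8 h, and 2 higher and 5 lower at 24 h, at an adjusted p under 0.05. With a replicate block within genotype at 8 h, when same-numbered Dex and vehicle libraries deviated together in both genotypes, 9 members were called in place of 6, the added ones being Ccl5, Ccl6 and Cxcl9. Over all genes, 14.5% were called at 2 h, 52.2% at 8 h and 53.6% at 24 h. Those called lower were 6.41% at 2 h, 24.7% at 8 h and 26.8% at 24 h, and those called higher 8.14, 27.5 and 26.8%, so the 5 members called lower stand against a small background at 2 h and a broad one later. All 6 Dex libraries lay below all 6 vehicle libraries for 4 members at 2 h, 5 at 8 h and 3 at 24 h (3.51, 16.9 and 14.8% of all genes), and above them for 0, 0 and 2 members (5.46, 20.3 and 13.9%). The members' median log2 fold change was -0.13, -0.47 and -0.37 at the 3 times, and that of all genes was -0.0047, 0.0117 and 0.0076. WT cells alone gave 5, 6 and 7 called members (9.02, 37 and 41.7% of all genes), and KO cells alone 4, 6 and 7 (10.4, 38.5 and 38.3%).

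Ccl2, the main monocyte attractant of the set, had 252, 163 and 131 CPM in the 3 WT libraries after 2 h of vehicle and 69.7, 53.3 and 36.9 CPM after 2 h of Dex. In KO cells the levels were 218, 163 and 181 CPM with vehicle and 47.2, 50.6 and 45.2 CPM with Dex. All 6 Dex libraries were below all 6 vehicle libraries, and the log2 fold change over both genotypes was -1.87 ± 0.31 (SE, edgeR adjusted p = 1.47e-05), a level 3.66-fold lower.

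At 8 h, Ccl2 stood at 152, 88.3 and 57 CPM with vehicle and 26.4, 16 and 12.1 CPM with Dex in WT, and at 123, 84.8 and 78.9 against 11.4, 13.7 and 15.7 CPM in KO. The groups were again separate, and the fold change was -2.63 ± 0.32 on the log2 scale (edgeR adjusted p = 1.93e-08). By 24 h the vehicle level had itself dropped and become uneven, at 119, 52.6 and 16.5 CPM in WT and 75.4, 36.1 and 43.6 CPM in KO. Dex libraries then had 13.9, 16.5 and 6.5 CPM in WT and 11.4, 18.2 and 8.15 CPM in KO, and WT vehicle replicate 3 fell within their range. The log2 fold change at 24 h was -2.18 ± 0.32 (edgeR adjusted p = 6.98e-07), and -2.30 without KO vehicle 24 h replicate 2.

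Ccl7, the neighbouring gene and the other CCR2 ligand, followed the same course. Its log2 fold changes with Dex were -2.14 ± 0.35, -2.77 ± 0.37 and -2.28 ± 0.37 at 2, 8 and 24 h (edgeR adjusted p = 1.7e-05, 1.05e-07 and 3.53e-06). At 8 h WT libraries had 176, 92.9 and 55.3 CPM with vehicle and 30.1, 14 and 11.5 CPM with Dex, and KO libraries 135, 83.3 and 78 against 11.8, 11.1 and 13.8 CPM. The groups were separate at 2 and 8 h and overlapped at 24 h, where WT vehicle replicate 3 had 14.5 CPM. In WT alone the 2 h call (-2.06) was lost without WT vehicle replicate 1 (-1.65, edgeR adjusted p = 0.0501). Ccl12, a further ligand of this subfamily that is not among the 10, averaged 4.67 CPM and was not called at any time (-0.37 ± 0.34, -0.56 ± 0.45 and -0.14 ± 0.41). Summing Ccl2, Ccl7 and Ccl12, in case reads were shared out between them, gave -1.94 ± 0.33, -2.67 ± 0.35 and -2.16 ± 0.34.

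Ccl4, an attractant of monocytes and T cells, was lower in every Dex library than in every vehicle library at each time. WT libraries held 138, 82.8 and 80.1 CPM after 2 h of vehicle against 22.2, 22.4 and 16.2 CPM after Dex, and KO libraries 156, 85.3 and 88.9 against 23, 23.5 and 17.7 CPM. At 8 h the levels were 141, 122 and 84 against 17.5, 17.4 and 16.7 CPM in WT and 157, 115 and 93.6 against 18.7, 17.8 and 18.9 CPM in KO. The Dex libraries at 8 h lay within a narrow band in both genotypes, while the vehicle libraries spread from 84.0 to 157 CPM. At 24 h WT had 139, 124 and 97.4 against 22.9, 23.5 and 15.4 CPM and KO 171, 90.0 and 138 against 39.7, 32.4 and 28.5 CPM. The log2 fold changes were -2.33 ± 0.19, -2.73 ± 0.19 and -2.26 ± 0.18 (edgeR adjusted p = 4.28e-12, 2.97e-14 and 2e-12), and the lowest KO vehicle library at 24 h was replicate 2, without which the last value was -2.38.

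Ccl3, the divergently transcribed neighbour of Ccl4 and a ligand of CCR1, fell less, and part of the fall had gone by 24 h. It had 91.4, 65.6 and 57.6 CPM with vehicle and 23.5, 23.9 and 23.1 CPM with Dex at 8 h in WT, and 81.5, 63.5 and 58.8 against 22.7, 24.4 and 26.7 CPM in KO. At 24 h the Dex level was higher, at 40.7, 42 and 29.2 CPM in WT and 49.9, 49.2 and 47.6 CPM in KO, beside vehicle levels of 85.2, 60.9 and 52.6 and 97.4, 54.4 and 79.9 CPM. Dex and vehicle libraries did not overlap at any time, although at 24 h WT vehicle replicate 3 (52.6 CPM) and KO vehicle replicate 2 (54.4 CPM) came close to the highest Dex library (49.9 CPM). The log2 fold changes were -1.41 ± 0.14, -1.53 ± 0.14 and -0.74 ± 0.14 (edgeR adjusted p = 5.38e-10, 2.07e-11 and 2.01e-05). Without KO vehicle 24 h replicate 2 the last was -0.85, and in KO alone it was -0.86 in place of -0.66. Without KO vehicle 24 h replicate 1 the KO call at 24 h was lost (-0.46, edgeR adjusted p = 0.0755).

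Cxcl16, the membrane-bound ligand of CXCR6, responded little at 2 h and clearly from 8 h on. At 2 h WT libraries had 164, 162 and 149.7 CPM with vehicle and 108, 145 and 116 CPM with Dex, while KO libraries had 169, 156 and 146 and 148, 133 and 130.4 CPM and overlapped. The change at 2 h was -0.28 ± 0.08 on the log2 scale (edgeR adjusted p = 0.00925). It was called in WT (-0.37, edgeR adjusted p = 0.0267) and not in KO (-0.19, 0.338), a difference between genotypes that did not itself pass the test (0.17 ± 0.16, 0.67). The WT call was lost on leaving out either vehicle replicate 1 or 2 or Dex replicate 1 or 3, with adjusted p up to 0.194. By 8 h the levels were 60.6, 77.3 and 62.6 CPM with Dex against 142, 150.4 and 138 with vehicle in WT, and 75.3, 78.8 and 71.2 against 153, 162 and 143 in KO. These no longer overlapped, and the change was -1.06 ± 0.08 at 8 h and -1.16 ± 0.08 at 24 h (edgeR adjusted p = 1.8e-13 and 2.41e-14).

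Ccl6 and Ccl9, which lie side by side between Ccl5 and Ccl3 on chromosome 11, moved the other way. Ccl6 had 1003, 566 and 431 CPM in WT after 24 h of vehicle and 2356, 1775 and 1421 CPM after Dex. In KO the levels were 763, 683 and 364 and 1799, 1399 and 1164 CPM. All 6 Dex libraries were above all 6 vehicle libraries, replicate 1 being the highest and replicate 3 the lowest in each of these 4 groups, and the log2 fold change was 1.37 ± 0.21 (edgeR adjusted p = 1.11e-06), a level 2.59-fold higher. At 2 and 8 h the values were 0.06 ± 0.20 and 0.33 ± 0.20, neither called (edgeR adjusted p = 0.939 and 0.175). Under the block within genotype the 8 h value was called (0.33 ± 0.07, edgeR adjusted p = 0.00026), and under a plain replicate block it was called in WT (0.34, edgeR adjusted p = 0.0276) and in KO (0.33, 0.0333).

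Ccl9 rose earlier. After 8 h it had 759.9, 564 and 487 CPM with vehicle and 1234, 915 and 897 CPM with Dex in WT, and 671, 477 and 489 against 1185, 813 and 705 CPM in KO. Within each genotype the groups were separate, while WT vehicle replicate 1 lay above the lowest KO Dex library. The log2 fold change was 0.08 ± 0.17 at 2 h, 0.74 ± 0.17 at 8 h and 1.00 ± 0.17 at 24 h (edgeR adjusted p = 0.894, 0.0004 and 6.15e-06). At 24 h all Dex libraries (1525, 1177 and 977 CPM in WT, 1292, 1076 and 907 CPM in KO) exceeded all vehicle libraries (739.6, 499.7 and 380.3 and 795, 639.5 and 414 CPM). Within 1 genotype the calls were less firm: at 8 h the WT call was lost without WT vehicle replicate 3 or WT Dex replicate 1 (lowest value 0.59) and the KO call without KO vehicle replicate 2 or 3 or KO Dex replicate 1 (lowest 0.46), and at 24 h the KO call was lost without KO vehicle replicate 3 (0.61). Of the Ccl9 transcript's 31-base words, 3.75% also occur in other genes and 35.7% of its deposited values were whole numbers within 0.01. For Cxcl16 these shares were 0% and 4.8%, and for the other 8 genes 100% of values were whole. Without KO vehicle 24 h replicate 2 the 24 h values were -2.41 for Ccl7, -1.11 for Cxcl16, 1.41 for Ccl6 and 1.01 for Ccl9, all still called by edgeR. The sum of Ccl6 and Ccl9 changed by 0.07 ± 0.18, 0.56 ± 0.18 and 1.21 ± 0.19.

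**Figure D2:**
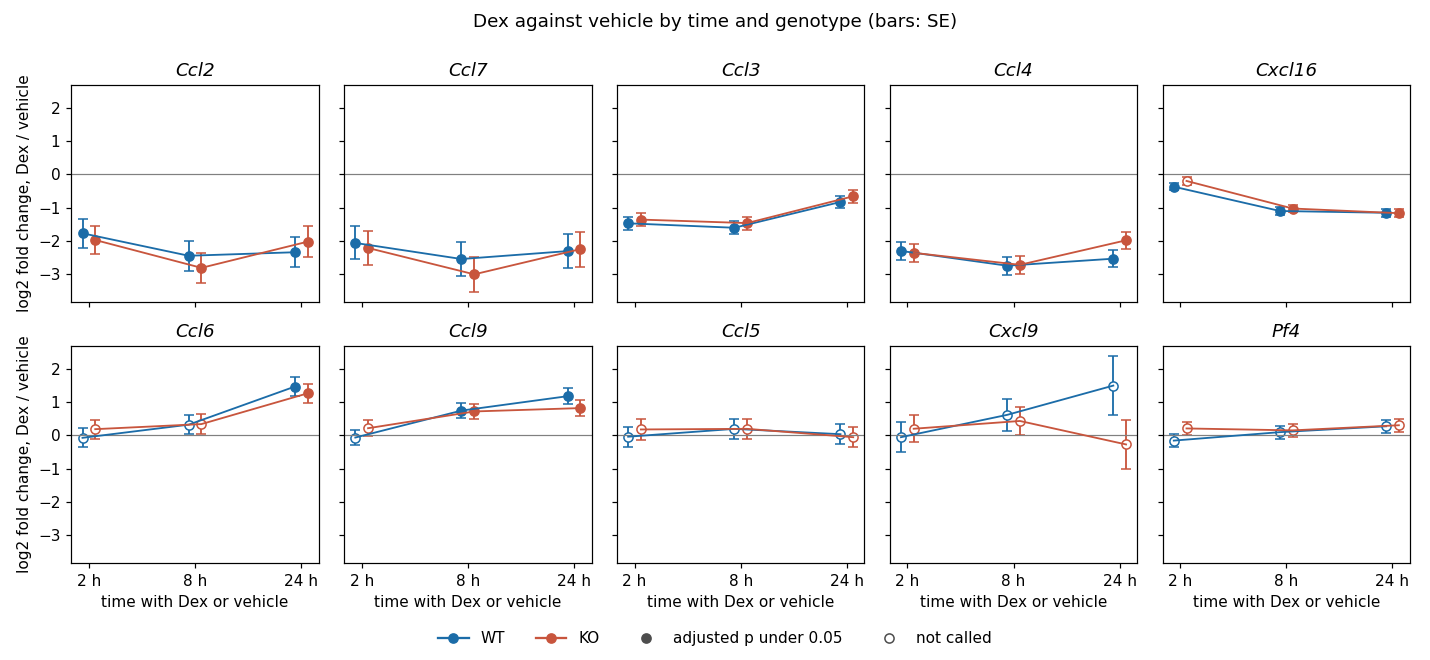
Log2 fold change of Dex against vehicle (vertical axis) at 2, 8 and 24 h for each gene in WT and KO macrophages, 3 libraries per group. Bars are the SE of the fold change without a prior count, and filled points passed an adjusted p of 0.05. The WT and KO lines of Cxcl9 part at 24 h (2.83-fold higher with Dex in WT, -0.27 on the log2 scale in KO), Ccl4 lies between -2.75 and -1.98, Ccl3 returns toward 0 at 24 h, and Ccl6 climbs from 0.33 at 8 h to 1.47 at 24 h in WT.

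Ccl5, Cxcl9 and Pf4 were not called in the mean of the genotypes at any time by edgeR without a block. With the block within genotype at 8 h, Ccl5 (0.20 ± 0.07, edgeR adjusted p = 0.0122) and Cxcl9 (0.52 ± 0.19, 0.0128) were called, as was Cxcl9 in WT (0.66 ± 0.28, 0.0431), and each of the 6 same-numbered pairs was higher with Dex for both genes. Ccl5, which attracts T cells among others, gave 0.07 ± 0.21, 0.20 ± 0.21 and -0.01 ± 0.22 on the log2 scale, and its Dex and vehicle libraries overlapped throughout. It lies in the same cluster as Ccl3 and Ccl4, which passed the test at each time. The values of Cxcl9 were 0.08 ± 0.30, 0.53 ± 0.32 and 0.62 ± 0.59, with few counts at 24 h: 4, 2 and 2 in WT vehicle libraries, 20, 12 and 2 in WT Dex, 9, 9 and 11 in KO vehicle and 7, 5 and 13 in KO Dex. The WT difference at 24 h was 2.83-fold (edgeR adjusted p = 0.0609). It was called with the replicate block (1.52, edgeR adjusted p = 0.0314), with the block within genotype (1.51, 0.00301) and by DESeq2. However, WT Dex replicate 3 had no more counts than the vehicle libraries.

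Pf4 had 467, 351 and 257 CPM after 24 h of vehicle and 491, 481 and 331 CPM after Dex in WT, with 383, 375 and 255 and 505, 422 and 327 CPM in KO. The libraries overlapped, and the change of 0.29 ± 0.14 did not pass the test (edgeR adjusted p = 0.076). It was 0.32 without KO vehicle 24 h replicate 2, and the 24 h values of Ccl5 and Cxcl9 were -0.06 and 0.53. With each library left out in turn the edgeR adjusted p of Pf4 ran from 0.0146 to 0.248. Each of the 6 same-numbered pairs was higher with Dex for Pf4 at 24 h. With the block within genotype it was called (0.30 ± 0.09, edgeR adjusted p = 0.00433), although replicate numbers were not shown to pair in KO at 24 h. Pf4 is abundant in platelets, of whose other markers 2 of 9 were in the table, Ppbp and Treml1. Their summed level was 4.23 to 6.89 CPM in WT Dex 24 h and 1.95 to 2.94 CPM in WT vehicle 24 h, and 3.37 to 4.74 against 2.28 to 4.14 CPM in KO; over all libraries it was 0.981 to 6.89 CPM, whereas Pf4 ranged from 224 to 505 CPM, and the other 7 markers were not analysed here.

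Markers of other cell types also differed at 24 h, when Ccl6 and Ccl9 were high. The summed collagen transcripts Col1a1, Col1a2 and Col3a1 (3 of 5 stromal markers) were at 7.67 to 39.7 CPM in WT Dex against 4.55 to 13.6 CPM in WT vehicle, and at 16.2 to 34.7 against 5.85 to 12.8 CPM in KO. The 4 of 5 dendritic cell markers measured summed to 5.29 to 7.23 CPM in WT Dex and 11.1 to 17.3 CPM in WT vehicle, and to 5.11 to 6.16 against 12.2 to 15.7 CPM in KO. Cd4, the 1 of 6 T cell markers measured, was at 2.87 to 6.23 CPM in WT Dex against 11.1 to 14.3 CPM in WT vehicle, and at 1.68 to 2.76 against 7.74 to 9.79 CPM in KO. Cd79b, the 1 of 4 B cell markers measured, was at 0.584 to 0.756 against 1.60 to 2.13 CPM in WT and at 0.482 to 0.771 against 1.59 to 2.00 CPM in KO. Dendritic, T and B cell markers were thus lower in each Dex library than in each vehicle library of the same genotype, and the collagens overlapped in WT. The 5 of 8 neutrophil markers overlapped between Dex and vehicle at 8 and 24 h in both genotypes. The part of these markers in the chemokine results was not tested.

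The change of the Dex effect with time was tested directly. From 2 to 8 h it deepened for Cxcl16 (-0.78 ± 0.11 on the log2 scale, edgeR adjusted p = 1.3e-06) and increased for Ccl9 (0.66 ± 0.24, 0.0324). Those were the 2 members called, among 31% of all genes, and the Ccl9 call was lost in 10 of 24 fits that left out 1 library (0.52 to 0.76, highest adjusted p 0.0941), from all 8 groups compared: WT vehicle 2 h replicate 1, WT Dex 2 h replicate 3, WT vehicle 8 h replicates 2 and 3, WT Dex 8 h replicate 1, KO vehicle 2 h replicate 1, KO Dex 2 h replicate 3, KO vehicle 8 h replicates 2 and 3 and KO Dex 8 h replicate 1. From 8 to 24 h the effect on Ccl3 shrank by 0.79 ± 0.19 (edgeR adjusted p = 0.00198) and that on Ccl6 increased by 1.04 ± 0.29 (0.00729), against 25.9% of genes called. Without KO vehicle 24 h replicate 2 these were 0.69 and 1.09, both still called. For Ccl2, Ccl7 and Ccl4 the step from 8 to 24 h was 0.45 ± 0.44, 0.50 ± 0.51 and 0.47 ± 0.25, none called.

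Neighbouring genes were compared within each library by the log2 ratio of their CPM, with a prior count of 2, a comparison added after the data had been seen. The test was an exact two-sided permutation test over the 6 vehicle and 6 Dex libraries of a time, with labels exchanged within genotype; its 400 arrangements allow no p below 0.005, and 9 ratios were adjusted together. Ccl4 relative to Ccl3 was lower with Dex at each time, by -0.88 at 2 h, -1.19 at 8 h and -1.53 at 24 h (exact permutation p = 0.005 and adjusted p = 0.0075 at each). With vehicle the log2 ratio was 0.82 ± 0.12 at 24 h (SD, n = 6) and with Dex it was -0.71 ± 0.22, so Ccl4 went from the more abundant of the pair in CPM to the less abundant.

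The Ccl6 to Ccl9 ratio did not differ detectably at 2 h (-0.02, exact permutation p = 0.85). It was lower with Dex at 8 h (-0.40) and higher at 24 h (0.39), each with an exact permutation p of 0.005 and an adjusted p of 0.0075. With vehicle the log2 ratio was already -0.13 at 8 h and 0.11 at 24 h, and with Dex it was -0.53 and 0.50. At 24 h without KO vehicle replicate 2, the ratio of Ccl6 to Ccl9 differed by 0.42 and that of Ccl4 to Ccl3 by -1.54 (exact permutation p = 0.005 each, the smallest 200 arrangements allow). The Ccl2 to Ccl7 ratio was higher with Dex at 2 h (0.25, exact permutation p = 0.005, adjusted 0.0075), and at 8 and 24 h the differences were 0.14 and 0.04 (p = 0.145 and 0.625).

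**Figure D3:**
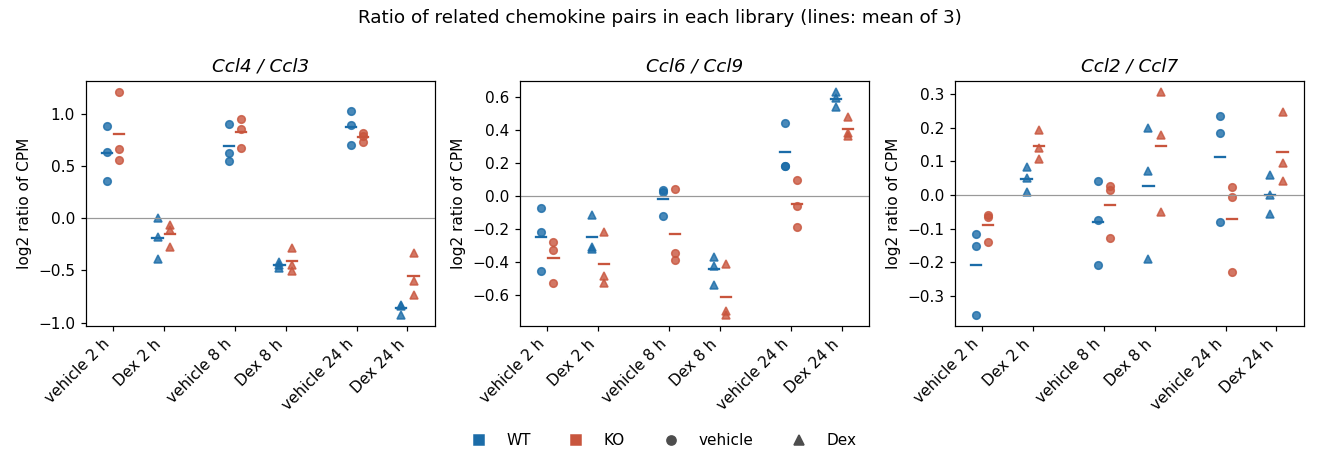
Log2 ratio of CPM of the first to the second gene in each library (vertical axis) for vehicle and Dex libraries at 2, 8 and 24 h, 3 per genotype; lines are means of 3. The Ccl4 to Ccl3 ratio is above 0 with vehicle and its mean is below 0 with Dex at each time, the Ccl6 to Ccl9 ratio is lower with Dex at 8 h and higher at 24 h, and the Ccl2 to Ccl7 ratio stays near 0.

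Chemokine transcripts also declined without Dex. Relative to untreated cells, edgeR called 2 members lower after 2 h of vehicle, 6 after 8 h and 8 after 24 h, and 0 higher at each time. By DESeq2 the counts of called members were also 2, 6 and 8, and at an unadjusted p under 0.05 they were 2, 6 and 8. Of all genes, 6.72%, 9.66% and 15.4% were called lower and 7.03%, 8.49% and 15.6% higher. Among the 15 NF-kB subunits and inhibitors listed beside the chemokines, 6 were called higher and 0 lower after 2 h of vehicle (6 and 0 by DESeq2 and at an unadjusted p under 0.05). After 8 and 24 h 1 and 4 were higher and 0 lower. Other lists also changed at 2 h. Of 7 mRNA stability genes 4 were higher and 0 lower, and of 14 interferon signalling genes 1 was higher and 6 lower. The part of these genes in the chemokine decline was not tested. These comparisons share their vehicle libraries with the Dex comparisons, and time since plating moves with them: the labels give untreated cells as the baseline only.

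Ccl3 and Ccl4 dropped first. In untreated WT cells Ccl4 had 226, 267 and 213 CPM and in untreated KO cells 292, 219.8 and 168 CPM, and its log2 change with vehicle was -1.14 ± 0.18 at 2 h, -0.96 ± 0.17 at 8 h and -0.87 ± 0.17 at 24 h (edgeR adjusted p = 1.81e-05, 0.000117 and 0.000207). Ccl3, with 120.1, 117 and 113 CPM in untreated WT and 157, 106 and 95.1 CPM in untreated KO cells, changed by -0.93 ± 0.13, -0.76 ± 0.13 and -0.72 ± 0.13, all called. Both changes were thus largest in size at 2 h, and whether they shrank afterwards was not tested. At 24 h their vehicle libraries overlapped the untreated ones.

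Ccl2 and Ccl7 declined later and further. Ccl2 had 241, 299 and 181 CPM in untreated WT cells and 225, 262 and 169 CPM in untreated KO cells, and its change was -0.31 ± 0.29 at 2 h (not called), -1.24 ± 0.30 at 8 h and -2.01 ± 0.31 at 24 h (edgeR adjusted p = 0.00307 and 4.25e-06 for the last 2). Ccl7 had 324, 348 and 203 CPM and 281, 282 and 169 CPM and changed by -0.37 ± 0.34, -1.37 ± 0.34 and -2.18 ± 0.35. At 24 h every vehicle library of both genes was below every untreated one.

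Cxcl9 declined most, from 81, 55 and 27 counts in untreated WT libraries and 250, 71 and 149 in untreated KO libraries to the handful of counts given above. Its log2 change was -1.14 ± 0.32 at 8 h, a call lost without KO untreated replicate 1 (-0.91, edgeR adjusted p = 0.0505), and -3.76 ± 0.44 at 24 h (edgeR adjusted p = 2.21e-09). Ccl5 had 224, 257 and 194 CPM in untreated WT cells and 91, 109 and 83.5 CPM after 24 h of vehicle, a change over both genotypes of -1.20 ± 0.22 (5.54e-05) that was not called at 2 or 8 h. Ccl9 changed by -0.51 ± 0.17 at 8 h and -0.50 ± 0.17 at 24 h and Cxcl16 by -0.24 ± 0.08 at 24 h (edgeR adjusted p = 0.032, 0.0222 and 0.0167). Single libraries decided these 3 calls. That of Ccl9 at 8 h was lost without WT untreated replicate 1 or 2, WT vehicle replicate 2 or 3, KO untreated replicate 1 or KO vehicle replicate 2 or 3 (-0.61 to -0.43 over 12 fits, edgeR adjusted p up to 0.113). At 24 h it was lost without WT vehicle replicate 3, KO untreated replicate 1 or KO vehicle replicate 3 (-0.65 to -0.39, up to 0.0835). The Cxcl16 call was lost without WT untreated replicate 2, WT vehicle replicate 1, KO untreated replicate 1 or KO vehicle replicate 3 (-0.30 to -0.18, up to 0.0735). Ccl6 and Pf4 were called at no time, with 0.04 ± 0.20 and 0.23 ± 0.14 at 24 h. Without KO vehicle 24 h replicate 2 the 24 h values were -0.76 for Ccl4, -0.62 for Ccl3, -1.90 for Ccl2, -2.05 for Ccl7, -3.68 for Cxcl9, -1.16 for Ccl5, -0.51 for Ccl9 and -0.30 for Cxcl16, all still called by edgeR.

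A further question of the design is whether MS4A4A loss alters the Dex response. For the 10 chemokines, the Dex effect in KO minus that in WT was called by edgeR for 0 members at 2, 8 or 24 h or averaged over the times, and for 0% of all genes at each. At an unadjusted p under 0.05 the counts by edgeR were 0, 0, 1 and 0 members, beside 986, 133, 564 and 598 of all genes. The member concerned was Cxcl9 at 24 h (-1.77 ± 1.17, edgeR adjusted p = 0.89, and -1.93 without KO vehicle 24 h replicate 2), and DESeq2 called 0 at each. The SE of Cxcl9 belongs to its fold change without a prior count, which differs from the printed value at such low counts. Ccl4 at 24 h had a smaller fall in KO than in WT, -1.98 against -2.53, a difference of 0.55 ± 0.36 (edgeR adjusted p = 0.89) that came to 0.34 without KO vehicle 24 h replicate 2. For Ccl2 and Ccl7 the SE of the difference was 0.60 to 0.72. To be called after adjustment over all genes, a difference must lie well above its SE. With 3 libraries a group, differences between genotypes larger than 0.72 could thus also have been missed, and the smallest detectable difference was not computed.

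With all libraries taken as independent, Ccl5 and Cxcl9 were called higher in KO than in WT cells without Dex, averaged over untreated and 3 vehicle times. With libraries summed by replicate number neither was called, as given below. The other 8 members were not called in the first fit. Ccl5 and Cxcl9 were among the 25 genes called there, 0.224% of all, of which 0.116% were higher. Ccl5 had 562, 240.3 and 278 CPM in untreated KO libraries and 224, 257 and 194 CPM in untreated WT libraries. After 8 h of vehicle it had 410.2, 232 and 234 CPM in KO and 169, 224 and 141 CPM in WT. KO replicate 1 was the highest library of its group in both cases, and KO replicate 2 was close to the WT level.

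Over the 4 conditions the log2 difference of Ccl5 was 0.69 ± 0.15 (edgeR adjusted p = 0.0431), and that of Cxcl9 was 1.25 ± 0.29 (0.0295). Cxcl9 had 6.91, 2.86 and 5.16 CPM in KO and 2.62, 2.51 and 1.65 CPM in WT after 2 h of vehicle. Without KO vehicle 24 h replicate 2 the differences were 0.71 and 1.29, both still called. Within single conditions edgeR and DESeq2 called 0 members of either direction, against 0.00896% of genes after 2 h and after 8 h of vehicle, 0.0448% after 24 h of Dex and 0% in the other 4 conditions by edgeR. At an unadjusted p under 0.05, 2 members passed in 6 of the 7 conditions and 1 after 2 h of vehicle. Of all genes, 177 (after 8 h of Dex) to 947 (after 2 h of Dex) passed at that threshold in a single condition. After 24 h of Dex both members that passed at it were higher in KO. Cxcl9 was not among them, with means of 0.338 CPM in KO and 0.404 CPM in WT.

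The genotype difference was uneven over the replicate numbers. Taking libraries of the same number and averaging the conditions without Dex, Ccl5 in KO minus WT was 1.17 for replicate 1, 0.08 for replicate 2 and 0.68 for replicate 3 on the log2 scale. Cxcl9 gave 1.48, 0.56 and 1.58. For replicate 2, Cxcl9 differed by 0.25 in untreated cells and by 0.18 and 0.35 after 2 and 8 h of vehicle. After 24 h of vehicle it differed by 1.43, on 9 counts in KO vehicle 24 h replicate 2 against 2 in WT. Ccl5 of replicate 2 differed by -0.10, -0.005 and 0.05, and by 0.39 with that KO library. The libraries of one number in the 4 conditions may not be independent of each other. When they were summed, so that 3 sets were compared with 3, the differences were 0.73 for Ccl5 and 1.35 for Cxcl9 and neither was called (edgeR adjusted p = 1 for both, 0 genes called). This summed fit held no term for the replicate number. The Ccl5 call was also lost in 13 of 24 fits that left out 1 library (0.57 to 0.75, adjusted p up to 0.108) and the Cxcl9 call in 10 of 24 (1.13 to 1.33, up to 0.0697). For Ccl5 these libraries were WT replicates 1 and 3 and KO replicate 1 of each condition and KO vehicle 2 h replicate 3. For Cxcl9 they were WT untreated replicate 1, WT vehicle 2 h and 8 h replicate 3, all 3 WT vehicle 24 h replicates, KO vehicle 2 h replicate 3, KO vehicle 8 h replicate 1 and KO vehicle 24 h replicates 1 and 3. With a replicate block, which still takes the 4 conditions as separate libraries, both genes stayed called by edgeR, among 111 genes.

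**Figure D4:**
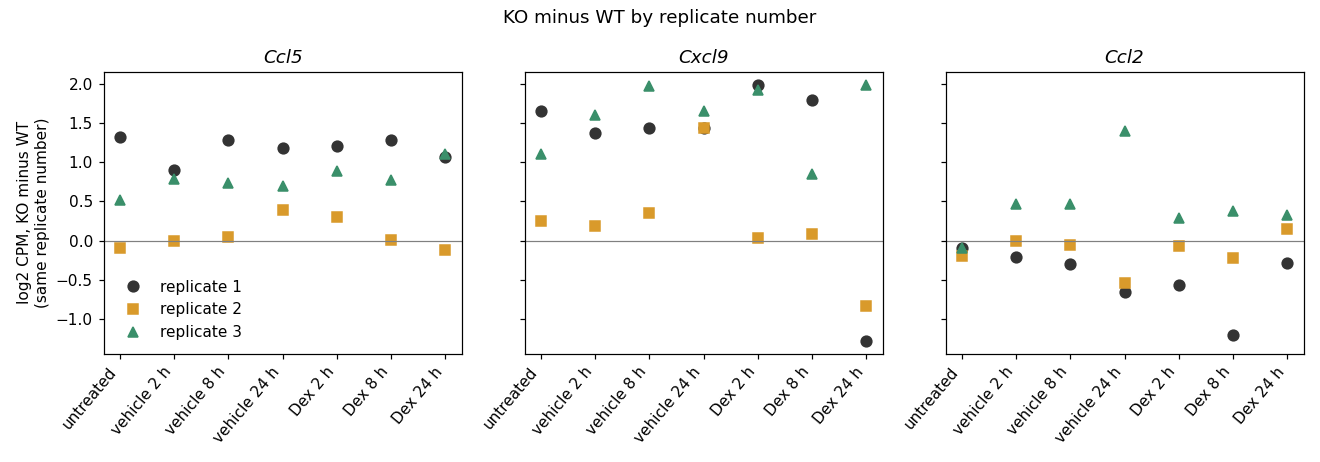
Log2 CPM in KO minus WT between libraries of the same replicate number (vertical axis) for Ccl5, Cxcl9 and Ccl2 in the 7 conditions; each point is 1 pair of libraries. For Ccl5 replicates 1 and 3 lie above 0 in all 7 conditions while replicate 2 lies between -0.12 and 0.39, and Ccl2 is given as a gene not called.

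Interferon signalling genes were listed because Cxcl9 is an interferon target, and edgeR called 0 of the 14 in KO against WT without Dex (3 at an unadjusted p under 0.05, 1 by DESeq2). Averaged over the conditions without Dex, their median difference was 0.11, 0.02 and 0.09 for replicates 1, 2 and 3. After 24 h of vehicle alone it was 0.088, 0.239 and -0.002. A link of the list to Ccl5 or Cxcl9 was not tested. Cxcl10, another CXCR3 ligand in the table, differed by 0.12 ± 0.28. As possible other sources of Ccl5, T cells were represented by 1 of 6 markers, Cd4 (1.68 to 23.3 CPM), and 0 of 5 NK cell markers were in the table; their part in the result was not tested.

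Over the 14 group means, the gene most like Ccl2 was Ccl7 (Pearson r = 0.999 among 9425 genes averaging at least 5 CPM), and the reverse held too. Zbtb21 came next for both (r = 0.980 and 0.975). Ccl3 was most like Rasgef1b (0.967) and then Ccl4 (0.963), while Ccl4 was most like Dok1 (0.985), Metrnl and Nbn. Ccl5 and Cxcl9 shared the same pair at the top, the complement genes C3 and Cfb (0.983 and 0.978 for Ccl5, 0.970 and 0.971 for Cxcl9). Ccl6 and Pf4 both had Fcgr2b, an inhibitory Fc receptor, among their 3 most alike genes (0.950 and 0.955). Ccl9 was most like Cbr2 (0.934), and Cxcl16 most like Afp (0.987), Esyt1 and Sema4d. These correlations are descriptions over group means that share libraries and treatments.

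Of 28 further chemokine ligands listed, 12 were in the table, all at low levels (0.741 to 7.33 CPM on average). With Dex, edgeR and DESeq2 called 0 of the 12 at 2 h (1 at an unadjusted p under 0.05), 1 higher and 3 lower at 8 h, and 2 higher and 3 lower at 24 h. Ccl24, an eosinophil attractant, was higher at 24 h (1.87 ± 0.31, edgeR adjusted p = 1.39e-06). Ccl22 and Cxcl14 were lower at 8 h (-1.85 ± 0.40 and -1.07 ± 0.26) and at 24 h (-1.61 ± 0.88 and -1.36 ± 0.30). The counts of this and the following lists stand beside 6.41, 24.7 and 26.8% of all genes called lower and 8.14, 27.5 and 26.8% called higher at 2, 8 and 24 h. The list's median log2 fold change was -0.09, 0.26 and -0.12.

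Some receptors for these ligands were lower with Dex. Of 9 chemokine receptors measured among 23 listed, edgeR called 0 higher and 4 lower at 2 h (0 and 3 by DESeq2, 0 and 4 at an unadjusted p under 0.05), 1 and 6 at 8 h, and 2 and 5 at 24 h. Ccr2, the receptor of Ccl2 and Ccl7, changed by -0.58 ± 0.20, -1.20 ± 0.20 and -2.34 ± 0.24, and Ccr3 by -2.02 ± 0.26 and -3.56 ± 0.28 at 8 and 24 h. Of 13 genes of receptor signalling, edgeR called 0 higher and 1, 5 and 6 lower, DESeq2 the same numbers, and at an unadjusted p under 0.05 0 were higher and 3, 5 and 6 lower. Rgs2, which shortens G protein signals, changed by -1.29 ± 0.09 at 24 h.

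Genes that control chemokine transcripts were split. Among 15 NF-kB subunits and inhibitors, 1 was higher and 4 lower at 2 h, 3 and 8 at 8 h, and 4 and 6 at 24 h, with a median of -0.07 at 2 h. Nfkbia, the inhibitor that holds NF-kB in the cytoplasm, was higher (1.49 ± 0.13 at 2 h, edgeR adjusted p = 1.8e-11), and Nfkbie, a related inhibitor, was lower (-0.80 ± 0.14, 4.13e-05). Bcl3 was lower at 2 h (-1.13 ± 0.09) and higher at 8 h (0.54 ± 0.09). Of 7 genes for proteins that act on mRNA stability, edgeR and DESeq2 called 3 higher and 0 lower at 2 h (4 and 0 at an unadjusted p under 0.05), and edgeR 4 and 2 at 8 h, and 4 and 1 at 24 h. Zc3h12a, an RNase that cuts cytokine mRNA, was higher at 2 h (1.88 ± 0.10, edgeR adjusted p = 8.64e-17) and less so at 24 h (0.29 ± 0.10, 0.0193). Zfp36l1 and Zfp36l2, which promote decay of AU-rich mRNA, gave 0.83 ± 0.12 and 0.71 ± 0.07 at 2 h.

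Among the 14 interferon signalling genes, 2 were higher and 4 lower with Dex at 2 h, 3 and 6 at 8 h, and 5 and 6 at 24 h. Ifngr1 and Ifngr2, which together form the interferon gamma receptor, moved apart, 1.25 ± 0.06 and -0.51 ± 0.05 at 8 h (edgeR adjusted p = 4.68e-18 and 1.88e-11). Of 9 measured proteases and inhibitors that can trim or shed chemokines, 2 were higher and 0 lower at 2 h (also by DESeq2 and at an unadjusted p under 0.05), 2 and 6 at 8 h, and 3 and 4 at 24 h. Mmp8 was higher at 24 h (3.14 ± 0.11), whereas Mmp12 and Mmp13 were lower (-3.39 ± 0.24 and -2.03 ± 0.19).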

How the data were processed

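Per the labels' protocols, RNA was sequenced from SMART-Seq mRNA libraries. The authors deposited 1 table of expected counts for 11160 genes in 42 libraries. The tools were Salmon, HISAT2 and fastp and the build GRCm38, per the submitters' processing notes, without versions or order; for strand use, annotation and gene filter, the sources used here give nothing. Among deposited expected counts, 69.5% were whole within 0.01, and no gene totals under 256 counts, so scarcer chemokines are not analysed here. Estimated counts of similar transcripts depend on how reads were split: 0% to 3.75% of the 31-base words of each member occur in other genes.

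Counts were rounded and tested with edgeR 4.0.16 (R 4.3.3): the quasi-likelihood F test on a model of 14 group means, TMM scaling (0.950 to 1.035), filterByExpr (0 genes removed), p adjusted by Benjamini-Hochberg over the 11160 genes of each comparison, and calls at an adjusted p under 0.05. Log2 fold changes use a prior count of 2. Each SE was computed from the fold change without a prior count. For scarce genes, such as Cxcl9 and Ccl22, the printed value and its SE therefore do not give the p-value. Libraries were grouped by title. Replicates of a group differed by more than counting noise (chi-square per degree of freedom 7.07 to 56.87 over 42 pairs), so none was merged. The smaller a count, the wider its error; Cxcl9 is the member this limits. Coordinates are from GENCODE M21 (GRCm38), and promoter sequences from RefSeq.

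Replicate numbers were taken as pairs where every correlation of same-numbered libraries' deviations was over 0.1: Dex in WT at 8 and 24 h (lowest 0.294 and 0.256), Dex in KO at 2 and 8 h (0.122 and 0.111), and, between genotypes, vehicle at 2, 8 and 24 h (0.239, 0.229 and 0.227) and Dex at 2 h (0.254). As alternatives served DESeq2 1.42.0, a replicate block (also within genotype), a prior count of 0.5, a filter at a mean of 5 CPM or none, median-ratio scaling, the compared libraries alone, summed replicate sets and each library left out. A fit without KO vehicle 24 h replicate 2 and the ratio test, with and without it at 24 h, were added after seeing the data. Genes named are the members, Ms4a4a and Fkbp5, the 3 genes most like each member, and up to 3 genes of each list with the lowest p; Ccl12, Cxcl10 and marker genes were named after their values were seen, and 1 listed gene is not reported here. The members and the gene lists were chosen with earlier results of these data known. Scripts were tested on simulated counts.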

Additional observations from a re-analysis of the deposited data

How the results depend on the processing

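Across 96 pairs of member and comparison (every member for Dex in the mean of genotypes, and otherwise the called ones, so that calls gained elsewhere are not in this count), 1518 of 1617 alternative values kept direction and side of the threshold, 70 lost a call, 9 gained one and 20 changed sign. In fits leaving out 1 library, sign changes touched only values that were not called: at 2 h of Dex Ccl5 (-0.07 to 0.22), Ccl6 (-0.07 to 0.20), Ccl9 (-0.01 to 0.17), Cxcl9 (-0.15 to 0.23) and Pf4 (-0.06 to 0.12), and at 24 h Ccl5 (-0.13 to 0.09). Pf4 at 24 h was called without WT vehicle replicate 1, WT Dex replicate 3 or KO Dex replicate 3 (0.20 to 0.41 over all fits). Members called for Dex in WT at 2 h ranged from 3 to 5, for 8 minus 2 h from 1 to 2, and for KO against WT without Dex from 0 to 2, with 9 to 38 genes in place of 25.

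With the replicate number as a block within genotype, 4 members were called in 8 minus 2 h (Ccl2 and Ccl6 added) and 4 in 24 minus 8 h (Ccl4 and Ccl9 added), against 2 each without it. It also gave 9 in place of 6 for Dex at 8 h, 8 in place of 6 for Dex in WT at 8 h (Ccl6 and Cxcl9 added), and 8 in place of 6 for 8 h of vehicle against untreated (Ccl5 -0.31, edgeR adjusted p = 0.00113, and Ccl6 -0.23, 0.0179, added). With a plain replicate block, used here where the numbers were not shown to pair, edgeR also called Ccl6 at 8 h (0.33, adjusted p = 0.00172) and Pf4 at 24 h (0.30, 0.00391) in the mean of genotypes, Pf4 in KO at 24 h (0.31, 0.0402), Ccl9 in 24 minus 8 h (0.29, 0.0384), and Ccl6 in KO against WT without Dex (-0.31, 0.00691); it ended no member's call. For KO against WT without Dex, 1 member was called at a mean of at least 5 CPM, a filter that leaves out Cxcl9. With the compared libraries alone 1 member was called, and Ccl5 was not (0.69, edgeR adjusted p = 0.0619). With summed sets, which have fewer samples, 0 were called. In this comparison DESeq2 called 71 genes and the block 111. The compared libraries alone gave 3101 in place of 4655 genes for Dex in WT at 24 h, and lost the WT call of Cxcl16 at 2 h (-0.37, 0.0841), that of Ccl9 at 24 h of vehicle (-0.51, 0.0528) and that of Cxcl16 there (-0.25, 0.0703). The cause of these differences was not tested. Depth limits Cxcl9 most.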
